A study of Solanum lycopersicum with 26 samples.

Results

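The endosperm of mature tomato seeds (Solanum lycopersicum cv. Moneymaker) was compared between dim and high light at high temperature. The comparison used 6 of the 26 libraries of the series: 3 from endosperm labelled HT_DL (high temperature, dim light) and 3 from endosperm labelled HT_HL (high temperature, high light), and these 6 were chosen by their labels alone. Both groups came from fruits picked at the breaker stage, 63 days after flowering (DAF), and ripened off the plant for 7 days at 32 °C by day and 26 °C by night with a 16 h photoperiod, so that the seeds were 70 DAF old. Light was 25 µE in HT_DL and 300 µE in HT_HL. The 6 endosperm libraries of the standard temperature (ST, 23 °C by day and 20 °C by night) at the same light levels, ST_DL and ST_HL, entered the same fit. Each replicate pooled 10 seeds taken from a pair of different fruits, and its embryo and endosperm were separated by hand. The p-values therefore measure the spread between pools of seeds, and the conditions concern detached ripening fruits, not fruits on the plant.

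The tomato endosperm is a living storage tissue that surrounds the embryo, holds oil and protein reserves in cells with thick mannan-rich walls, and, at its tip, covers the radicle and restrains germination until the wall is weakened. In Arabidopsis its outer face carries a cuticle, and cuticle waxes are built from very-long-chain fatty acids. Seeds inside a ripening fruit finish their maturation in a hydrated state, and soluble sugars of the raffinose family, proline and heat shock proteins are known to build up in seeds and other tissues that meet heat or drying.

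The 6 libraries held between 20718450 and 21111227 estimated counts each, so depth did not separate the groups. Values below are CPM (counts scaled to a common library size) on library sizes scaled by the trimmed mean of M-values (TMM), a level that is not divided by gene length, so levels are compared between libraries and not between genes. The tissue label held: 75 genes that were higher in the endosperm than in the embryo of the ST_HL libraries summed to between 58640 and 72020 CPM in the 6 libraries and to between 281.2 and 1255 CPM in the embryo libraries. The 11 genes that marked the embryo summed to 11.4, 34.6 and 21.0 CPM in HT_DL and to 5.89, 7.67 and 8.90 CPM in HT_HL, against 1307 to 2766 CPM in the embryo libraries. Their sum was thus higher in HT_DL than in HT_HL, and it was 21.0 to 32.4 CPM in the ST endosperm libraries. Of the 11 genes, 2 were themselves among those called higher in HT_DL below and none was called lower. Of the 75 endosperm genes, 3 were called higher and 3 lower. The shares over all genes tested were 2.68% and 3.25%. Whether the sum of the 11 genes reflects a trace of embryo transcripts or the level of these 11 genes in the endosperm was not tested. Its part in the results was not tested either. In bulk tissue, fewer cells of a type and less RNA per cell cannot be told apart.

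HT_DL replicate 3 stood apart from the other HT_DL replicates. On the first principal component of the 12 endosperm libraries, which held 39.9% of the variance, it lay at -65.5, while HT_DL replicates 1 and 2 lay at 24.5 and 17.6 and the HT_HL libraries between 54.5 and 68.0. Its correlation with HT_DL replicates 1 and 2 across genes was 0.944 and 0.943, against 0.985 between those replicates, and it was closest to ST_HL replicate 2 (0.978). Where a DEG described in the Results below lost its call without this library or another, the paragraph with its fold change under heat says so.

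**Figure D1:**
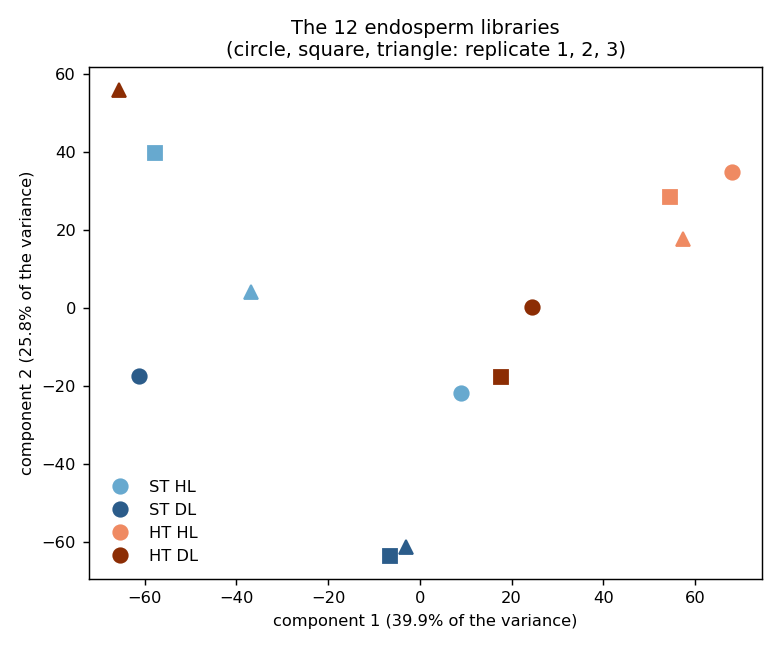
Principal components 1 (39.9% of the variance) and 2 (25.8%) of the 12 endosperm libraries, from log2 CPM; colours mark the conditions and shapes the replicates. The HT_HL libraries group on the right, and HT_DL replicate 3 (triangle, -65.5 on component 1) lies on the far side from HT_DL replicates 1 and 2.

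Of 19185 genes tested, 624 (3.25%) were lower and 514 (2.68%) were higher in HT_DL than in HT_HL. A differentially expressed gene (DEG) is one with a Benjamini-Hochberg adjusted p below 0.05 in edgeR's quasi-likelihood test and a log2 fold change above 1 or below -1; the fold change is HT_DL over HT_HL, so a negative value is a lower level in dim light. The median log2 fold change was -1.45 over the lower DEGs, 1.34 over the higher DEGs and 0.02 over all genes tested. Without the fold threshold, 2672 genes (13.9%) were lower and 2059 (10.7%) higher. The 3 libraries of each condition did not overlap for 3722 genes (19.4%) that were lower and 3193 (16.6%) that were higher in HT_DL, and 599 of the lower and 501 of the higher DEGs were among them. Without HT_DL replicate 3 there were 509 lower and 415 higher DEGs, of which 449 and 326 were also called with it. The counts fell furthest without HT_HL replicate 1, to 411 lower and 243 higher DEGs, of which 406 and 222 were also called with it. Of the 78 DEGs that are named or belong to the KCS family described below, 24 lost the call without HT_DL replicate 3, 30 without HT_HL replicate 1 and 44 without at least 1 of the 6 libraries.

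The lower DEGs more often reached well-counted levels. In the condition where they were higher, 353 of the 624 lower DEGs (56.6%) reached a mean of 10 CPM, against 116 of the 514 higher DEGs (22.6%) and 54.0% of all genes tested. Very large decreases were more often called than very large increases: 30 of 33 genes with a log2 fold change below -3 were DEGs, but only 14 of 239 above 3. Of these 239 genes, 197 were at 1 CPM or more in HT_DL replicate 3 and at least 10 times higher there than in both other HT_DL replicates.

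**Figure D2:**
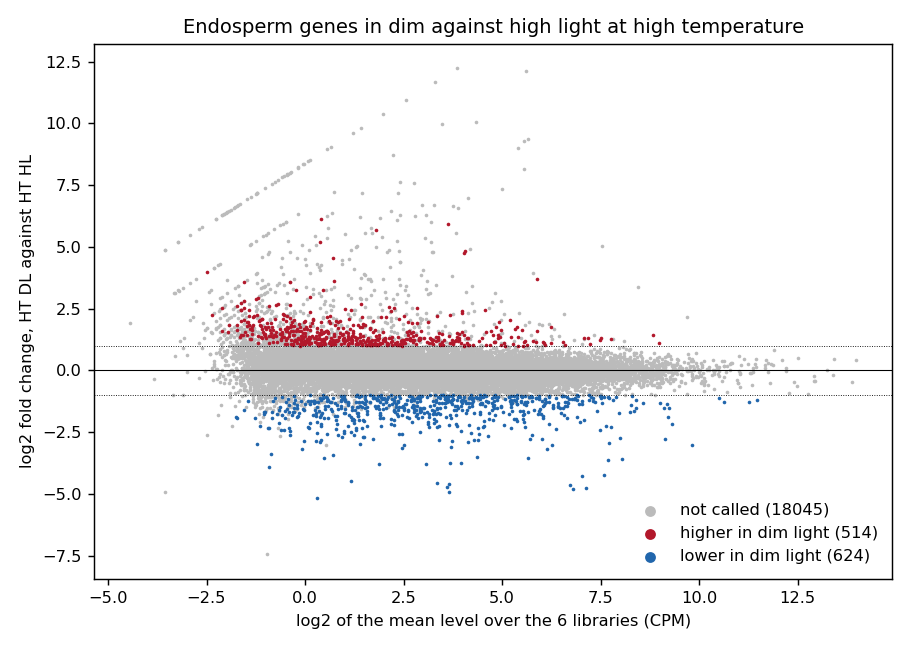
Log2 fold change (HT_DL over HT_HL) against the log2 of the mean level in CPM for the genes with a count in the 6 libraries; dotted lines mark log2 fold changes of -1 and 1. Of 19185 genes tested, 624 DEGs were lower (blue) and 514 higher (red), and of the 239 genes above a log2 fold change of 3, mostly grey, 197 were at least 10 times higher in HT_DL replicate 3 than in both other HT_DL replicates.

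The largest decreases among well-measured genes exceeded 10-fold in the means, in genes that no table used here annotates. Solyc01g081250.3.1 was measured at 11.6, 4.35 and 6.90 CPM in HT_DL and 179, 87.3 and 376 CPM in HT_HL (log2 fold change -4.81 ± 0.71 SE, adjusted p = 0.00113). Solyc05g008120.4.1 was measured at 0.973, 0.871 and 0.509 CPM in HT_DL and 17.1, 9.55 and 45.8 CPM in HT_HL (log2 fold change -4.93 ± 0.67 SE, adjusted p = 0.000812). In both, every HT_HL library lay far above every HT_DL library, and the HT_HL libraries differed among themselves, with replicate 3 highest. By the same rule the largest change in either direction was an increase, of Solyc12g100120.2.1, also without annotation, which was at 1.11, 1.05 and 71.4 CPM in HT_DL and 0.328, 0.459 and 0.408 CPM in HT_HL (log2 fold change 5.92 ± 1.95 SE, adjusted p = 0.0463). It rested on HT_DL replicate 3, without which the log2 fold change was 1.43, adjusted p = 0.559, and the call was also lost without any 1 of the HT_HL replicates (log2 fold changes of 5.80, 6.05 and 5.94). The other large increase, of the RuBisCo small subunit, is described with the photosynthesis genes.

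Gene functions were known for a part of the genes only. A Mercator (MapMan) annotation of 1561 IDs, which covers mainly photosynthesis, carbohydrate, amino acid and lipid metabolism, and Gene Ontology terms of genes on the unplaced scaffolds and the first part of chromosome 1 were used, and 1672 of the genes tested had at least 1 of these. Of the 1145 tested genes with a Mercator bin, 36 (3.14%) were lower and 40 (3.49%) higher DEGs, close to the shares over all genes tested. The members are therefore described by pathway and no pathway is set above the rest by a test. Of 65 gene lists, 39 held a DEG, 23 held none and 3 had no tested member.

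**Figure D3:**
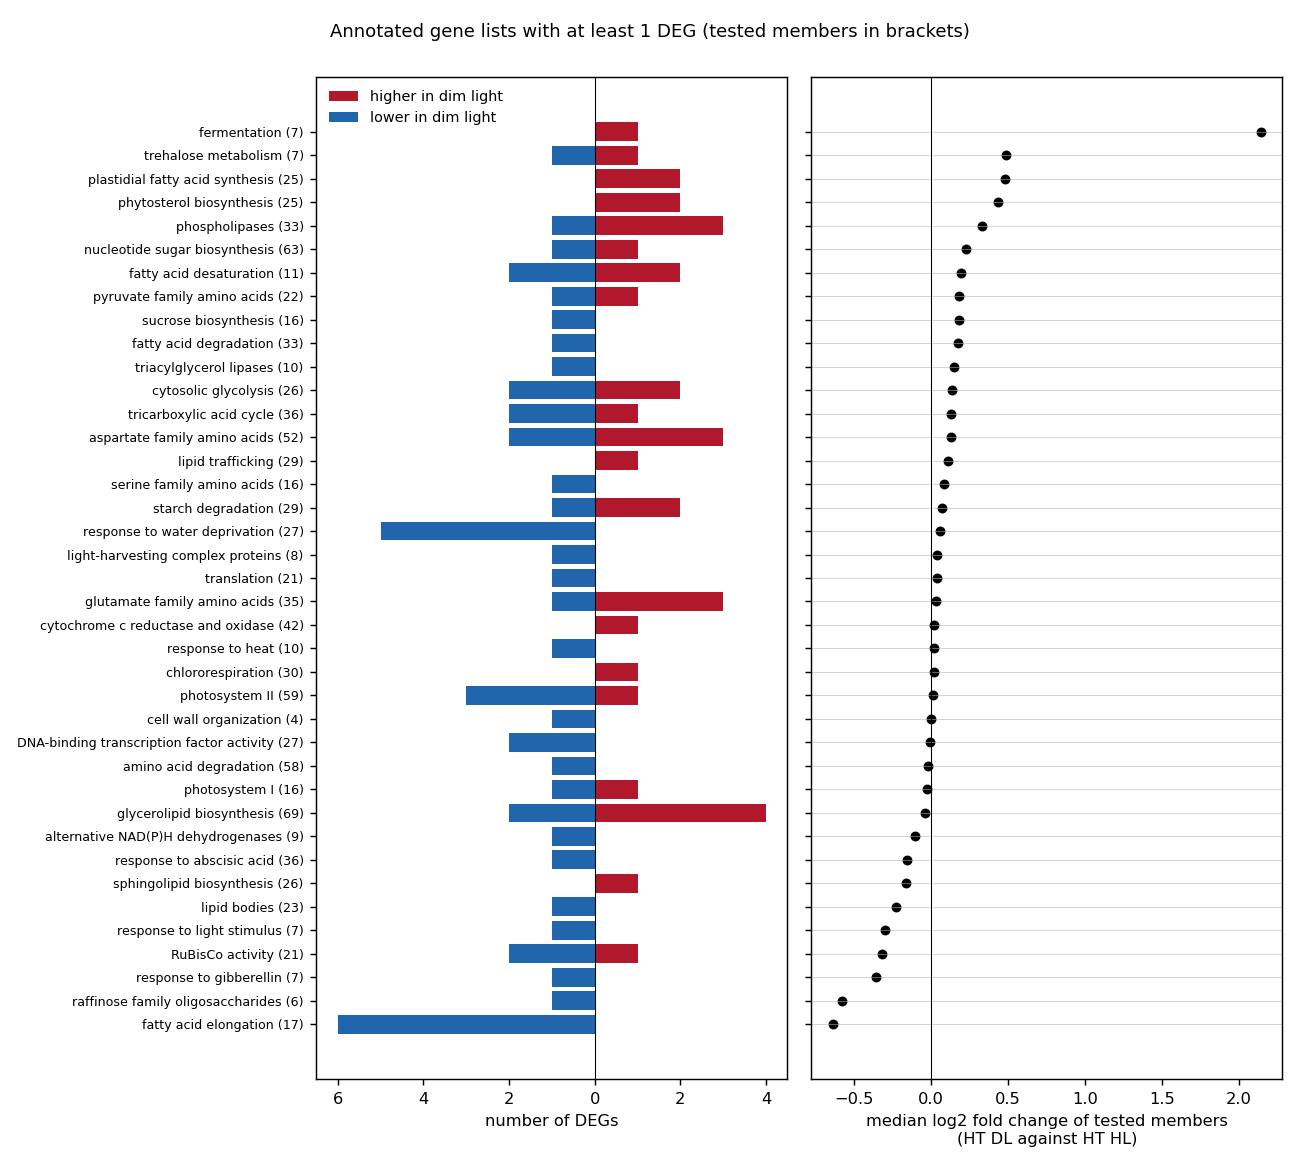
Left, the number of DEGs lower (blue, to the left) and higher (red, to the right) in HT_DL than in HT_HL for the 39 annotated gene lists with at least 1 DEG, with the number of tested members in brackets; right, the median log2 fold change over the tested members. Fatty acid elongation held 6 lower DEGs and none higher, and response to water deprivation 5 lower and none higher. The lists share genes, and the fermentation median of 2.14 fell to 0.23 without HT_DL replicate 3.

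Genes of fatty acid elongation that changed past both thresholds were lower in dim light. Of the 17 tested members, 6 were lower DEGs, none was a higher DEG, and the median log2 fold change was -0.64, against 3.25% lower, 2.68% higher and a median of 0.02 over all genes. All 6 are 3-ketoacyl-CoA synthases (KCS), the condensing enzymes that set the chain length in the elongase of the endoplasmic reticulum, whose very-long-chain products enter waxes, cutin, suberin and sphingolipids. Of 13 KCS genes tested, 10 had a negative log2 fold change, with a median of -1.02. The KCS family was singled out after its values were seen.

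The KCS gene Solyc09g083050.3.1 had the smallest adjusted p of the annotated decreases. It was measured at 6.76, 4.72 and 5.04 CPM in HT_DL and 37.2, 33.1 and 25.0 CPM in HT_HL, and the groups were far from overlapping (log2 fold change -2.53 ± 0.23 SE, adjusted p = 0.000139). Solyc03g005320.3.1 was at 146, 124 and 126 CPM in HT_DL and 294, 357 and 215 CPM in HT_HL (log2 fold change -1.13 ± 0.16 SE, adjusted p = 0.00108). Solyc08g067260.4.1 was at 111, 96.6 and 149 CPM in HT_DL and 255, 181 and 292 CPM in HT_HL (log2 fold change -1.03 ± 0.23 SE, adjusted p = 0.00889). The lowest HT_HL library lay above the highest HT_DL library for all of these, as it did for the remaining KCS DEGs. Solyc12g056720.2.1 went from 82.2, 79.5 and 52.9 CPM in HT_HL to 42.2, 37.3 and 26.6 CPM in HT_DL (log2 fold change -1.02 ± 0.22 SE, adjusted p = 0.00691). Solyc02g085870.3.1 and Solyc09g065780.3.1 had means of 2.13 and 1.94 CPM in HT_HL and log2 fold changes of -2.84 and -1.65. One KCS gene moved the other way without reaching the fold threshold: Solyc04g080450.1.1 was at 24.5, 27.3 and 33.0 CPM in HT_DL and 19.8, 19.2 and 22.9 CPM in HT_HL (log2 fold change 0.45 ± 0.11 SE, adjusted p = 0.015). With 1 library left out the list held 4 or 5 lower DEGs, 4 without HT_HL replicate 1 or 2. The call on Solyc12g056720.2.1 was lost without HT_DL replicate 3 (-0.85) and without HT_HL replicate 1 (-0.91) or 2 (-0.94). That on Solyc08g067260.4.1 was lost without HT_DL replicate 1 (-0.99) or 2 (-0.90) or HT_HL replicate 1 (-0.99) or 3 (-0.88), and that on Solyc03g005320.3.1 without HT_HL replicate 2 (-0.95). On library totals the first and the second of these were at -0.96 each and were not DEGs. KCS genes are a multigene family, so reads shared by near-identical members may have been divided between them in the authors' quantification.

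Plastidial fatty acid synthesis, which supplies the acyl chains that elongation extends, had 9 of 25 tested members that passed an adjusted p of 0.05 as higher and none as lower, against 10.7% and 13.9% of all genes. Of these, 2 were higher DEGs. The log2 fold changes of the members ran from -0.60 to 1.92, with a median of 0.48. Ketoacyl-ACP synthase II, Solyc07g042315.1.1, which makes the last plastid elongation step to stearoyl-ACP, was at 6.58, 8.66 and 18.5 CPM in HT_DL and 2.43, 3.49 and 2.96 CPM in HT_HL (log2 fold change 1.92 ± 0.39 SE, adjusted p = 0.00539). HT_DL replicate 3 was the highest library, and without it the gene had a log2 fold change of 1.36, adjusted p = 0.012. The list's median was 0.34 without that replicate, with 3 higher DEGs.

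Desaturases, which introduce double bonds into acyl chains, were divided, with 2 higher and 2 lower DEGs of 11 tested, against 2.68% and 3.25% of all genes. The omega-3/omega-6 desaturase Solyc12g045035.1.1 was at 41.8, 30.3 and 24.4 CPM in HT_DL and 14.5, 17.3 and 16.0 CPM in HT_HL (log2 fold change 1.01 ± 0.19 SE, adjusted p = 0.0033), and a second one, Solyc04g040130.1.1, at 2.32, 1.70 and 1.62 CPM in HT_DL and 0.468, 0.643 and 0.204 CPM in HT_HL (log2 fold change 2.07 ± 0.49 SE, adjusted p = 0.0107). The delta-7/delta-9 desaturase Solyc03g116730.4.1 was at 10.3, 7.61 and 5.14 CPM in HT_DL and 17.6, 18.0 and 12.3 CPM in HT_HL (log2 fold change -1.06 ± 0.22 SE, adjusted p = 0.00562). A stearoyl-ACP desaturase, Solyc06g059720.3.1, had a mean of 1.92 CPM in HT_HL and 0.524 CPM in HT_DL (log2 fold change -1.86 ± 0.59 SE, adjusted p = 0.0399). Of these 4 calls, 3 were lost with single libraries left out. The delta-7/delta-9 desaturase lost its call without HT_DL replicate 3 (-0.84, adjusted p = 0.00973), without HT_HL replicate 1 (-0.98) or 2 (-0.96), and on library totals (-0.999). The first omega-3/omega-6 desaturase lost it without HT_DL replicate 1 (0.78) or HT_HL replicate 1 (0.95), and the stearoyl-ACP desaturase without HT_DL replicate 1 (-2.04) or 2 (-1.41) or HT_HL replicate 1 (-1.92) or 3 (-1.38).

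Among the proteins of stored oil, the lipid droplet-associated protein (LDAP) Solyc05g015390.3.1, which coats lipid droplets, was at 213, 158 and 156 CPM in HT_DL and 543, 435 and 516 CPM in HT_HL (log2 fold change -1.50 ± 0.15 SE, adjusted p = 0.000223). All HT_HL libraries exceeded all HT_DL libraries more than 2-fold. Of the 23 tested lipid body genes, 9 passed an adjusted p of 0.05 as lower and 1 as higher (13.9% and 10.7% of all genes), with 1 DEG and a median log2 fold change of -0.23. Monoacylglycerol lipase, Solyc09g075140.3.1, which frees the last acyl chain of a broken-down triacylglycerol, was also lower, at 26.6, 19.2 and 33.6 CPM in HT_DL and 68.6, 50.2 and 91.8 CPM in HT_HL (log2 fold change -1.41 ± 0.24 SE, adjusted p = 0.00254).

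Phospholipases and glycerolipid enzymes changed in both directions. Of 33 tested phospholipases 3 were higher and 1 was a lower DEG, against 2.68% and 3.25% of all genes, and without HT_DL replicate 3 these were 2 and 1 of 36. The phospholipase A1 Solyc02g077100.3.1 was at 33.5, 25.1 and 36.6 CPM in HT_DL and 12.1, 17.5 and 9.02 CPM in HT_HL (log2 fold change 1.30 ± 0.23 SE, adjusted p = 0.00255), without overlap of the groups. The phosphatidylglycerol lipases of the PLIP1 type, which in Arabidopsis release plastid acyl chains for seed oil, were split: Solyc01g095720.3.1 had a log2 fold change of 1.58, adjusted p = 0.00177, and Solyc01g079600.4.1 had one of -1.17, adjusted p = 0.0123. Of 69 tested glycerolipid genes 4 were higher and 2 lower DEGs, among them diacylglycerol kinase Solyc10g008640.3.1 (log2 fold change 1.68 ± 0.31 SE, adjusted p = 0.00332) and a glycerol-3-phosphate acyltransferase of the GPAT9 type, the entry enzyme of glycerolipid assembly (Solyc02g055533.1.1, log2 fold change 1.03 ± 0.30 SE, adjusted p = 0.0284). A member of the GPAT4-8 type, whose Arabidopsis relatives act in cutin and suberin, was lower (Solyc01g094700.4.1, log2 fold change -1.80 ± 0.39 SE, adjusted p = 0.00756). Phytosterol biosynthesis held 2 higher DEGs and none lower among 25 tested, with a median of 0.44 and 8 genes higher at an adjusted p of 0.05 (10.7% of all genes). Its sterol glucosyltransferase Solyc04g071540.4.1 was at 8.01, 9.62 and 5.74 CPM in HT_DL and 2.81, 5.01 and 1.99 CPM in HT_HL (log2 fold change 1.25 ± 0.28 SE, adjusted p = 0.00907). The glucosyltransferase lost its call without HT_HL replicate 3 (0.99). Solyc01g079600.4.1 lost it without HT_HL replicate 1 (-1.09, adjusted p = 0.0508) or 3 (-0.89), and the GPAT9 gene without HT_DL replicate 2 (0.87) or HT_HL replicate 1 (0.89) or 2 (0.82).

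In sugar metabolism, galactinol synthase Solyc01g079170.3.1, the first committed enzyme of raffinose family oligosaccharides, was lower in dim light. Its libraries were tight, at 14.9, 16.8 and 11.3 CPM in HT_DL and 35.5, 32.0 and 34.7 CPM in HT_HL (log2 fold change -1.25 ± 0.13 SE, adjusted p = 0.000249). Trehalose-6-phosphate phosphatase, which turns the sugar signal trehalose-6-phosphate into trehalose, had a member that fell and a member that rose. Solyc08g079060.4.1 was at 42.3, 38.4 and 33.7 CPM in HT_DL and 91.7, 87.4 and 72.1 CPM in HT_HL (log2 fold change -1.13 ± 0.12 SE, adjusted p = 0.000249), and Solyc03g007290.4.1 at 1.20, 0.550 and 2.04 CPM in HT_DL and 0.375, 0.321 and 0.153 CPM in HT_HL (log2 fold change 2.12 ± 0.50 SE, adjusted p = 0.0105).

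The DEGs among the starch-degrading enzymes likewise went in both directions. Beta amylase Solyc09g091030.3.1, which releases maltose from starch, was at 78.0, 68.3 and 55.4 CPM in HT_DL and 162, 116 and 173 CPM in HT_HL (log2 fold change -1.16 ± 0.16 SE, adjusted p = 0.000827). The cytosolic alpha-glucan phosphorylase Solyc09g031970.3.1, which acts on the glucans made from that maltose, had the smallest adjusted p of the annotated increases, at 11.2, 12.5 and 12.7 CPM in HT_DL and 5.38, 5.28 and 6.32 CPM in HT_HL (log2 fold change 1.10 ± 0.12 SE, adjusted p = 0.00034). Glucan, water dikinase Solyc05g005020.4.1, which phosphorylates the starch granule and opens it to the amylases, was at 28.9, 37.3 and 61.3 CPM in HT_DL and 13.2, 13.9 and 23.7 CPM in HT_HL (log2 fold change 1.33 ± 0.29 SE, adjusted p = 0.00738). For the phosphorylase and the dikinase every HT_DL library lay above every HT_HL library. HT_DL replicate 3 was the highest for the dikinase, which was not a DEG without it (0.97, adjusted p = 0.0213). Starch degradation thus went from 2 higher and 1 lower DEG of 29 tested, against 2.68% and 3.25% of all genes, to 1 and 1 of 30. Starch biosynthesis held no DEG, but 8 of its 18 tested members passed an adjusted p of 0.05 as higher and 1 as lower, against 10.7% and 13.9% of all genes, and their median log2 fold change was 0.36. Starch branching enzyme Solyc09g009190.4.1 was the member with the smallest p, at 42.3, 49.4 and 49.8 CPM in HT_DL and 23.5, 26.8 and 31.8 CPM in HT_HL (log2 fold change 0.78 ± 0.11 SE, adjusted p = 0.00107).

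Of the 26 tested genes of cytosolic glycolysis, 2 were higher and 2 lower DEGs, against 2.68% and 3.25% of all genes. Without HT_DL replicate 3 there was 1 higher and no lower DEG. Pyrophosphate-dependent phosphofructokinase Solyc07g049280.3.1 was at 3.24, 3.12 and 3.05 CPM in HT_DL and 1.26, 1.33 and 1.38 CPM in HT_HL (log2 fold change 1.24 ± 0.15 SE, adjusted p = 0.000471), whereas its ATP-dependent counterpart Solyc07g045160.3.1 was at 7.09, 5.22 and 5.60 CPM in HT_DL and 11.2, 9.87 and 15.1 CPM in HT_HL (log2 fold change -1.01 ± 0.20 SE, adjusted p = 0.00422). These phosphofructokinases catalyse the same step with different phosphate donors. A triose-phosphate isomerase, Solyc06g005490.3.1, was lower (log2 fold change -1.04 ± 0.18 SE, adjusted p = 0.00266). Neither lower call held without HT_DL replicate 3 (log2 fold changes of -0.97 and -0.90), without HT_DL replicate 2 (-0.93 and -0.93) or on library totals (-0.94 and -0.98), and that on the phosphofructokinase was also lost without HT_HL replicate 3 (-0.82).

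**Figure D4:**
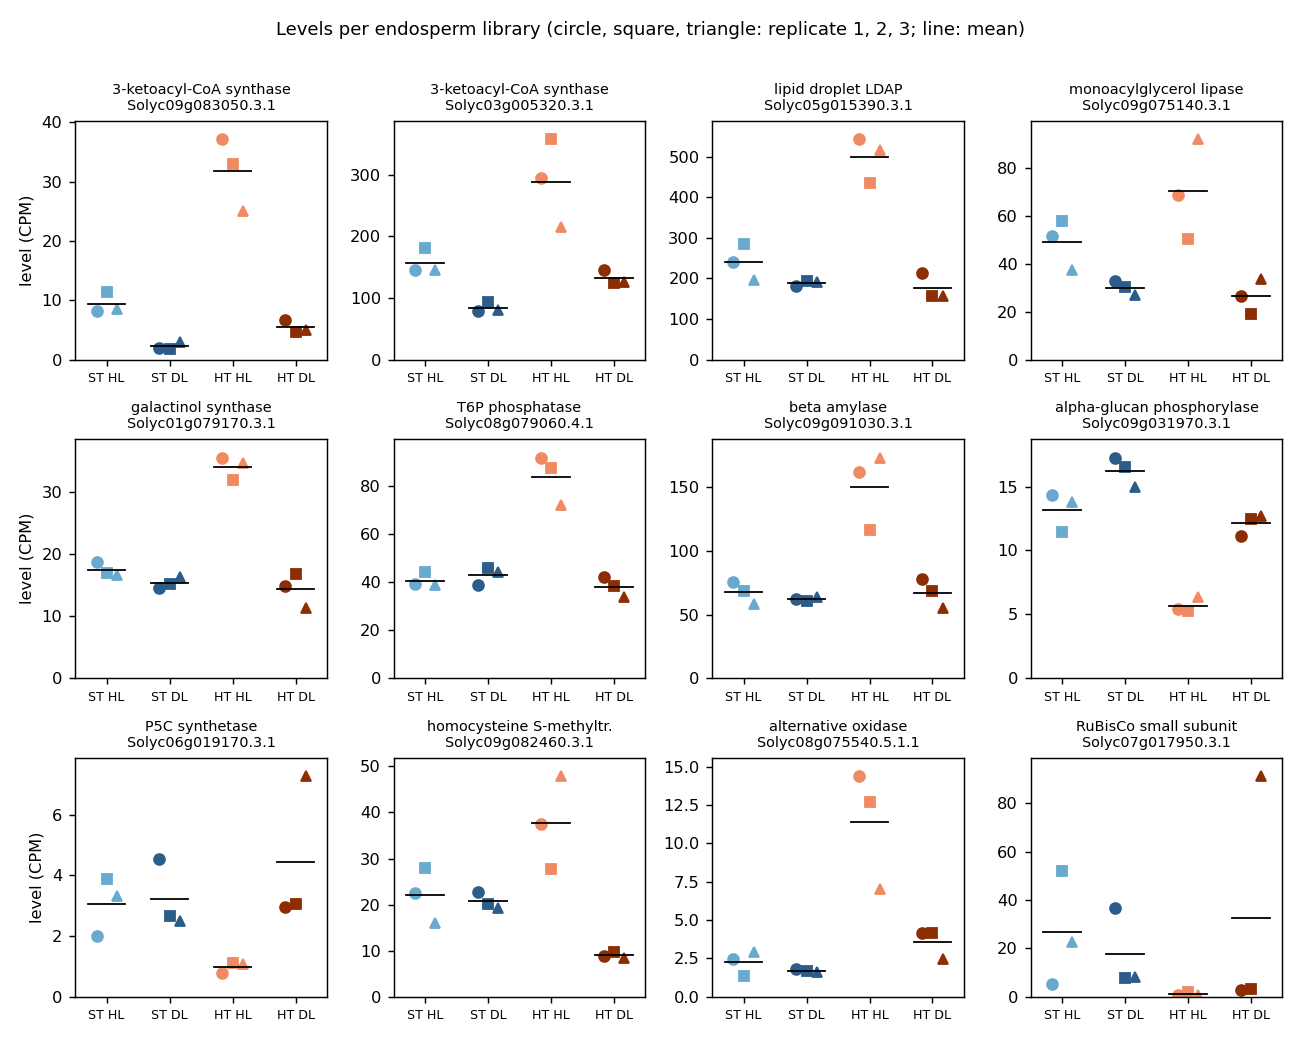
Level in CPM of 12 annotated genes in every endosperm library, by condition; shapes mark replicates 1, 2 and 3 and lines the means. The KCS genes, LDAP, galactinol synthase, trehalose-6-phosphate phosphatase and beta amylase are highest in HT_HL; the RuBisCo small subunit is at 91.2 CPM in HT_DL replicate 3 and at 3.35 CPM or less in the other HT libraries.

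In proline metabolism, 3 genes placed in synthesis were higher and 1 gene of breakdown was lower. Of these, only the synthetase kept its call with any 1 HT endosperm library left out. The glutamate family list held 3 higher and 1 lower DEG of 35 tested, and amino acid degradation held 1 lower of 58. The shares over all genes were 2.68% and 3.25%. Pyrroline-5-carboxylate synthetase Solyc06g019170.3.1, the first and controlling enzyme of proline synthesis from glutamate, was at 2.96, 3.07 and 7.27 CPM in HT_DL and 0.796, 1.10 and 1.07 CPM in HT_HL (log2 fold change 2.16 ± 0.41 SE, adjusted p = 0.00407). HT_DL replicate 3 was again the highest, and without it the log2 fold change was 1.60, adjusted p = 0.00919. The transcription factors that Mercator places in proline synthesis (PHR1 type) were higher, Solyc09g072830.4.1 (log2 fold change 1.08 ± 0.17 SE, adjusted p = 0.00133) and Solyc05g055940.3.1 (log2 fold change 1.09 ± 0.25 SE, adjusted p = 0.0102). Both lost the call without HT_DL replicate 3 (log2 fold changes of 0.95 and 0.89) and without HT_HL replicate 1 (0.96 and 0.95), and the latter also without HT_HL replicate 3 (0.95). Proline dehydrogenase Solyc02g089620.3.1, which opens proline breakdown in mitochondria, was lower, at 31.3, 34.3 and 33.6 CPM in HT_DL and 73.2, 79.9 and 54.0 CPM in HT_HL (log2 fold change -1.06 ± 0.33 SE, adjusted p = 0.037). Without HT_DL replicate 3 its adjusted p was 0.077, and the call was also lost without HT_DL replicate 1 or 2 or HT_HL replicate 1 or 2 (log2 fold changes between -1.09 and -0.95).

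In the aspartate family, which leads to methionine, lysine and threonine, 3 of 52 tested genes were higher and 2 were lower DEGs. The shares over all genes were 2.68% and 3.25%, and without HT_DL replicate 3 the list held 2 higher and 1 lower DEG. Cystathionine gamma-synthase Solyc02g067180.3.1, the first committed step to methionine, was at 95.9, 95.8 and 82.6 CPM in HT_DL and 40.7, 56.4 and 30.7 CPM in HT_HL (log2 fold change 1.10 ± 0.18 SE, adjusted p = 0.00178). Homocysteine S-methyltransferase Solyc09g082460.3.1, which makes methionine from homocysteine and S-methylmethionine, was at 8.94, 9.76 and 8.38 CPM in HT_DL and 37.6, 27.7 and 47.9 CPM in HT_HL (log2 fold change -2.06 ± 0.22 SE, adjusted p = 0.0003). The lowest HT_HL library of the methyltransferase was well above every HT_DL library. Glutamine-dependent asparagine synthetase Solyc06g007180.3.1 was lower, at 4.40, 6.05 and 3.98 CPM in HT_DL and 9.60, 14.1 and 7.60 CPM in HT_HL (log2 fold change -1.11 ± 0.23 SE, adjusted p = 0.00552). The pyruvate family, a separate list, held 1 higher and 1 lower DEG of 22 tested. Its lower DEG was 2-isopropylmalate synthase Solyc08g014130.3.1, the entry to leucine, at 21.2, 19.4 and 22.0 CPM in HT_DL and 45.2, 39.5 and 55.4 CPM in HT_HL (log2 fold change -1.16 ± 0.13 SE, adjusted p = 0.000338). The asparagine synthetase was not a DEG without HT_DL replicate 3 (-0.99, adjusted p = 0.0196) or HT_HL replicate 2 (-0.84), nor cystathionine gamma-synthase without HT_HL replicate 3 (0.91).

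Of the respiratory genes, alternative oxidase Solyc08g075540.5.1.1, which passes electrons to oxygen without pumping protons, was at 4.17, 4.17 and 2.45 CPM in HT_DL and 14.4, 12.7 and 7.04 CPM in HT_HL (log2 fold change -1.66 ± 0.31 SE, adjusted p = 0.00385). Subunits of succinate dehydrogenase, an enzyme of the tricarboxylic acid cycle and the respiratory chain, moved in opposite directions. The iron-sulphur subunit SDH2 Solyc04g055030.2.1 was at 7.64, 9.53 and 6.43 CPM in HT_DL and 31.4, 25.4 and 14.7 CPM in HT_HL (log2 fold change -1.60 ± 0.26 SE, adjusted p = 0.00191). The flavoprotein SDH1 Solyc02g085350.4.1 was at 130.3, 146 and 345 CPM in HT_DL and 71.5, 75.8 and 105 CPM in HT_HL (log2 fold change 1.30 ± 0.35 SE, adjusted p = 0.0192), and its call was lost without HT_DL replicate 3 (0.71, adjusted p = 0.055) and without HT_HL replicate 1 (1.19, adjusted p = 0.0841) or 2 (1.23, adjusted p = 0.0564). The E1 component of 2-oxoglutarate dehydrogenase, Solyc04g011350.3.1, was lower (log2 fold change -1.19 ± 0.19 SE, adjusted p = 0.00164), but not a DEG without HT_HL replicate 3 (-0.96). The mitochondrial NADH dehydrogenase complex (32 genes tested) and ATP synthase (23) held no DEG.

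Of the photosynthesis genes, many were filtered out for low counts and few of the rest were DEGs. Photosystem II held 3 lower and 1 higher of 59 tested (104 IDs in the count table), and photosystem I held 1 each of 16 (37 IDs), beside 3.25% lower and 2.68% higher of all genes. PsbY Solyc10g077120.3.1, a small photosystem II subunit, was at 2.69, 1.15 and 1.48 CPM in HT_DL and 21.0, 10.5 and 40.3 CPM in HT_HL (log2 fold change -3.75 ± 0.53 SE, adjusted p = 0.000951), without overlap. Psb27 Solyc07g054290.1.1, an assembly factor of photosystem II, was at 1.44, 1.33 and 1.20 CPM in HT_DL and 5.15, 2.30 and 6.27 CPM in HT_HL (log2 fold change -1.78 ± 0.38 SE, adjusted p = 0.00703). The chaperonin partners CPN20 Solyc07g042250.3.1 and CPN10 Solyc01g088610.4.1, which Mercator lists for RuBisCo assembly and which assist protein folding in the plastid, were lower. CPN20 was at 72.0, 49.7 and 53.5 CPM in HT_DL and 159.7, 141 and 138 CPM in HT_HL (log2 fold change -1.32 ± 0.15 SE, adjusted p = 0.000371), and CPN10 had a log2 fold change of -1.03, adjusted p = 0.0118. The CPN10 call was lost without HT_DL replicate 2 (-0.85) or HT_HL replicate 3 (-0.97) and on library totals (-0.96). Of the 21 tested RuBisCo genes, 9 passed an adjusted p of 0.05 as lower and 2 as higher, against 13.9% and 10.7% of all genes.

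The RuBisCo small subunit Solyc07g017950.3.1 was a higher DEG through 1 library. It was at 2.78, 3.35 and 91.2 CPM in HT_DL and 0.749, 1.84 and 0.765 CPM in HT_HL (log2 fold change 4.84 ± 1.48 SE, adjusted p = 0.0349), and the call was lost without HT_DL replicate 3 (log2 fold change 1.44, adjusted p = 0.366) and without any 1 of the HT_HL replicates (4.62 to 5.42). The same held for alanine aminotransferase Solyc06g063090.4.1, at 5.88, 7.47 and 36.7 CPM in HT_DL, and for the NDH assembly factor CRR1 Solyc03g026210.4.1, at 2.78, 2.57 and 13.4 CPM, with adjusted p-values of 0.185 and 0.138 without HT_DL replicate 3. The small subunit belonged to a wider set. In all, 285 genes were at 1 CPM or more in HT_DL replicate 3 and at least 10 times higher there than in both other HT_DL replicates, against 2 and 6 genes by the same measure for HT_DL replicates 1 and 2 and 1 to 4 genes for the HT_HL libraries. Only 8 of the 285 were DEGs. With these exceptions they do not enter the counts of DEGs above, but short lists that hold them moved with the replicate, as the median of 2.14 for the 7 tested fermentation genes, which was 0.23 without it. Of all 514 higher DEGs, HT_DL replicate 3 was the highest HT_DL library for 236, and at least 2 times both other HT_DL libraries for 69. It was the lowest HT_DL library for 299 of the 624 lower DEGs.

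The annotated members of that set, chosen after their values were seen, included genes of carbon fixation, fermentation and sucrose use. Alcohol dehydrogenase Solyc06g059740.4.1 was at 5.05, 3.90 and 156 CPM in HT_DL and 4.68, 11.8 and 6.93 CPM in HT_HL, sucrose synthase Solyc12g009300.3.1 at 1.90, 2.80 and 41.0 CPM in HT_DL and 1.17, 1.75 and 1.73 CPM in HT_HL, and phosphoribulokinase Solyc08g076220.3.1, a Calvin cycle enzyme, at 0.371, 0.458 and 24.7 CPM in HT_DL and 0.141, 0.459 and 0.255 CPM in HT_HL. None of these 3 was a DEG, with adjusted p-values of 0.124, 0.117 and 0.072. The summed level of the 285 genes was 10622 CPM in HT_DL replicate 3, between 261.3 and 322.1 CPM in the other 5 HT libraries, and 6166, 3304 and 2096 CPM in ST_HL replicate 2, ST_DL replicate 1 and ST_HL replicate 3. The other ST endosperm libraries held 271.5 to 390.8 CPM. In a fit of all libraries, 283 of these genes also summed to between 5366 and 6064 CPM in 4 embryo libraries (ST_HL replicates 2 and 3 and HT_DL replicates 2 and 3) and to between 444.2 and 791.1 CPM in the other 10. High values of this set were thus found in 1 of 3 endosperm and 2 of 4 embryo libraries of HT_DL and in no HT_HL library.

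Among genes annotated by Gene Ontology, response to water deprivation held 5 lower DEGs and none higher of 27 tested, against 3.25% and 2.68% of all genes, although its median log2 fold change was 0.06. Of these, Solyc01g007020.4.1, Solyc01g007030.3.1 and Solyc01g007040.4.1 have consecutive IDs, are annotated with ubiquitin transfer and response to chitin, and may share reads. Their HT_HL means were 3.37, 1.33 and 1.71 CPM and their log2 fold changes -2.51, -2.60 and -3.17. All 3 lost the call without HT_HL replicate 1 (-1.78, -1.83 and -2.49), which left 2 lower DEGs in the list, and Solyc01g007030.3.1 also without HT_DL replicate 2 (-2.64, adjusted p = 0.0506). Solyc01g009440.3.1, a transcription factor annotated with response to heat and ethylene signalling, was at 0.417, 0.321 and 0.231 CPM in HT_DL and 3.47, 2.16 and 1.38 CPM in HT_HL (log2 fold change -2.83 ± 0.55 SE, adjusted p = 0.00422). The gibberellin 2-beta-dioxygenase Solyc01g058030.2.1, of a family that inactivates gibberellins, the hormones that promote germination, was at 19.2, 17.5 and 16.3 CPM in HT_DL and 41.6, 31.8 and 49.7 CPM in HT_HL (log2 fold change -1.21 ± 0.18 SE, adjusted p = 0.00115). A pectinesterase, Solyc01g059940.2.1, which removes methyl groups from cell wall pectin, was at 3.94, 3.94 and 5.74 CPM in HT_DL and 16.8, 9.92 and 19.4 CPM in HT_HL (log2 fold change -1.76 ± 0.39 SE, adjusted p = 0.0083).

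Genes annotated with unfolded protein binding moved down by less than the fold threshold. All 4 tested members passed an adjusted p of 0.05 as lower, against 13.9% of all genes, and their median log2 fold change was -0.55. Solyc01g005820.4.1 was at 73.5, 65.5 and 64.7 CPM in HT_DL and 106, 104 and 110.1 CPM in HT_HL (log2 fold change -0.65 ± 0.10 SE, adjusted p = 0.00113), without overlap of the groups. The annotation used covers a small part of the genome for this function, and the heat shock genes outside it are not described here.

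The same light contrast gave fewer DEGs at standard temperature, where 3 of the 6 libraries held the set of genes described above: by the same criteria 166 genes (0.865%) were lower and 53 (0.276%) higher in ST_DL than in ST_HL endosperm. Of the 624 genes lower under heat, 494 (79.2%) had a negative log2 fold change at standard temperature, against 51.3% of all genes, with a median of -0.41. Of the 514 higher ones, 345 (67.1%) had a positive one, against 48.7%, with a median of 0.19. The contrasts share no library, but they share the fit. Called at both temperatures in the same direction were 52 lower genes (8.33% of those under heat, 31.3% of those at standard temperature) and 18 higher genes (3.50% and 34.0%), and 5 genes were called in opposite directions. Among the KCS genes, Solyc09g083050.3.1 and Solyc12g056720.2.1 were lower DEGs at both temperatures (under heat the second was not a DEG without HT_DL replicate 3 or HT_HL replicate 1 or 2), with log2 fold changes at standard temperature of -2.06 and -1.18.

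The difference between the light effects, the light by temperature interaction, passed an adjusted p of 0.05 for 987 genes (5.14%), 649 of them with a lower and 338 with a higher light effect under heat. This count moved with the libraries used. It lay between 103 and 1488 with any 1 endosperm library left out, lowest without ST_DL replicate 3, and was 418 without HT_DL replicate 3. When HT_DL replicate 3, ST_DL replicate 1 and ST_HL replicates 2 and 3 were all left out, only 1 ST_HL library remained. The interaction then rested on that library, so a count from that fit cannot be compared with the 987. With the same 4 libraries left out, the light effect under heat itself kept 545 lower and 397 higher DEGs, of which 446 and 311 were among those reported. Homocysteine S-methyltransferase Solyc09g082460.3.1 and trehalose-6-phosphate phosphatase Solyc08g079060.4.1 were 2 of the 3 named genes whose interaction passed with any 1 library left out. The methyltransferase was at 22.8, 20.2 and 19.3 CPM in ST_DL and 22.4, 28.0 and 16.0 CPM in ST_HL, with overlap, and differed between the temperatures by -1.97 ± 0.30 SE, adjusted p = 0.0112. The phosphatase was at 38.6, 45.8 and 44.1 CPM in ST_DL and 39.0, 44.0 and 38.7 CPM in ST_HL, and differed by -1.21 ± 0.16 SE, adjusted p = 0.00806.

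**Figure D5:**
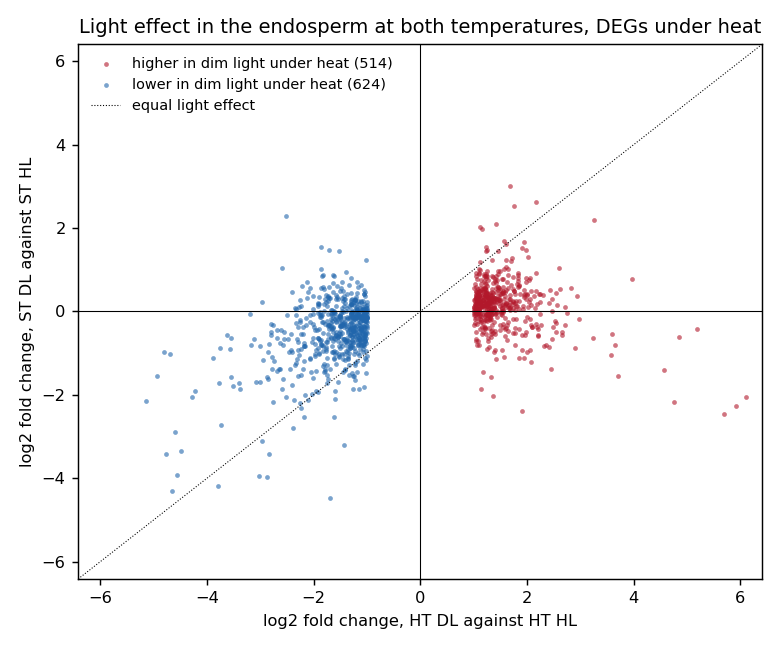
Log2 fold change of dim over high light at standard temperature against that at high temperature for the DEGs under heat (blue, 624 lower; red, 514 higher); the dotted line marks equal effects. Most blue points lie below zero on the vertical axis (494 of 624) but nearer to it than to the dotted line, and the median at standard temperature is -0.41.

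Across the 4 conditions, the mean of the lower DEGs was highest in HT_HL for 596 of 624, and that of the higher DEGs was lowest in HT_HL for 489 of 514. As the DEGs were chosen for a difference between HT_HL and HT_DL, HT_HL could only be at 1 end more often, and these counts are a description. The lowest mean of the lower DEGs was in HT_DL for 318 and in ST_DL for 274. LDAP followed this pattern, with means of 498 CPM in HT_HL, 240.4 in ST_HL, 189 in ST_DL and 176 in HT_DL, where the last 2 did not differ beyond the spread of their libraries (182, 194 and 192 against 213, 158 and 156 CPM).

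The embryos of the same conditions gave 287 lower (1.49%) and 455 higher (2.36%) DEGs of 19253 tested. Without the 4 embryo libraries that held high values of the set described above, there were 199 lower and 256 higher DEGs. Of the lower endosperm DEGs that were tested in the embryo, 473 of 548 (86.3%) were lower there too, against 48.0% of genes tested in both tissues, and of the higher ones 412 of 432 (95.4%) were higher, against 52.0%. Embryo and endosperm were separated from pooled seeds, and the labels do not state which libraries share a pool. The tissues are therefore not taken as independent material. Without HT_DL endosperm replicate 3 and the 4 embryo libraries named above, these shares were 406 of 450 (90.2%, background 51.3%) and 295 of 324 (91.0%, background 48.7%). Called in both tissues were 150 lower genes (24.0% of the endosperm's, 52.3% of the embryo's) and 86 higher genes (16.7% and 18.9%). The difference between the light effects of the tissues passed an adjusted p of 0.05 for 145 of 21153 genes (0.685%), 88 of them lower and 57 higher in the endosperm, and for 12 to 288 genes with 1 HT library left out (12 without HT_HL embryo replicate 1, 25 without HT_DL endosperm replicate 3). Stearoyl-ACP desaturase Solyc06g059720.3.1 was among the 145, with a log2 difference of -6.32 ± 1.40 SE, adjusted p = 0.0412, and 2-isopropylmalate synthase Solyc08g014130.3.1 with -0.88 ± 0.19 SE, adjusted p = 0.0412. Of 13 fits with 1 HT library left out, the desaturase passed in 4 and the synthase in 5. Neither passed without HT_DL endosperm replicate 3, and the highest adjusted p was 0.142 for each. The desaturase had endosperm means of only 0.524 CPM in HT_DL and 1.92 CPM in HT_HL. None of the 6 KCS DEGs passed the test of the difference between the tissues, and their log2 fold changes in the embryo lay between -0.51 and 3.15.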

How the data were processed

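RNA of hand-dissected tomato seed tissues was sequenced on the BGISEQ-500 platform, and per the study's methods the authors quantified reads on the SL4.0/ITAG4.0 transcriptome with Salmon 0.14.1 (k-mers of length 31, sequence bias correction). The authors deposited the estimated counts made by Salmon (expected counts) for 33976 IDs in 26 libraries, not normalized, and 10.5% of the values were not whole. Estimated counts were rounded. Salmon divides reads shared by related transcripts by a model, so members of gene families are less certain. The files give no coordinates or sequences.

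Genes were filtered with filterByExpr (minimum count 10, minimum total 15), leaving 19185 of the 12 endosperm libraries, scaled by TMM and tested with edgeR's quasi-likelihood test (edgeR 4.0.16, R 4.3.3) with 1 coefficient per condition. The study's methods used DESeq2, which was an alternative here. The total per HT library was 20718450 to 21111227 and the common biological coefficient of variation 0.219. CPM values are on TMM-scaled library sizes, and the standard error is the log2 fold change over the square root of F. Tissue differences used a fit of all 26 libraries. The script was tested on simulated data.

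Genes named were the 2 DEGs with the largest change in each direction among those with no overlap and a higher group mean of at least 10 CPM, up to 4 DEGs per list and direction with a higher mean of at least 1 CPM, the member with the smallest p of a list with none, and the smallest adjusted p in each direction. The RefSeq gene table matched 0 of the IDs, so names rest on the study's Mercator bins (1561 IDs) and Gene Ontology terms (2000 IDs), both held only in part, and no set test was run. Members, lists and tests were chosen with earlier results of these data known. Alternatives were RLE scaling, library totals, no filter, DESeq2 1.42.0, limma 3.58.1 (voom with sample quality weights), other thresholds, other sets of libraries, the replicate number as a block and each replicate left out. The fits without the 4 to 8 libraries that stood apart were chosen after seeing the data.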

Additional observations from a re-analysis of the deposited data

Results flagged for a closer look

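The light effect of 987 genes differed between the temperatures in the endosperm, and that of 145 genes under heat differed between endosperm and embryo, each by a test of the difference itself. Among the named genes 22 passed the first test, and 3 of them, homocysteine S-methyltransferase, trehalose-6-phosphate phosphatase and Solyc01g005820.4.1, passed it with any 1 of the 12 endosperm libraries left out. The values below are log2 differences, the light effect under heat minus that at standard temperature.

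The effect under heat was the lower one for Solyc01g081250.3.1 (-3.84), Solyc05g008120.4.1 (-3.38), PsbY Solyc10g077120.3.1 (-2.88), 3-ketoacyl-CoA synthase Solyc09g065780.3.1 (-2.10), homocysteine S-methyltransferase Solyc09g082460.3.1 (-1.97), SDH2 Solyc04g055030.2.1 (-1.42), trehalose-6-phosphate phosphatase Solyc08g079060.4.1 (-1.21), LDAP Solyc05g015390.3.1 (-1.16), galactinol synthase Solyc01g079170.3.1 (-1.07), beta amylase Solyc09g091030.3.1 (-1.04), Solyc01g005820.4.1 (-0.82), 2-isopropylmalate synthase Solyc08g014130.3.1 (-0.77) and the cytochrome b6 maturation factor CCB1 Solyc02g005210.3.1 (-0.57).

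It was the higher one for cytosolic alpha-glucan phosphorylase Solyc09g031970.3.1 (0.80), pyrophosphate-dependent phosphofructokinase Solyc07g049280.3.1 (0.90), omega-3/omega-6 fatty acid desaturase Solyc12g045035.1.1 (1.01), cystathionine gamma-synthase Solyc02g067180.3.1 (1.11), the lipid flippase component ALA Solyc05g006640.4.1 (1.28), phospholipase A1 Solyc02g077100.3.1 (1.28), phosphatidylglycerol lipase Solyc01g095720.3.1 (1.43), myo-inositol-1-phosphate synthase Solyc05g051850.3.1 (1.96) and omega-3/omega-6 fatty acid desaturase Solyc04g040130.1.1 (3.28). The omega-3/omega-6 desaturase Solyc04g040130.1.1 was measured at means of 0.10 CPM in ST_DL and 0.24 CPM in ST_HL, so its value at standard temperature rests on few counts. The flippase component and myo-inositol-1-phosphate synthase were higher DEGs under heat. Both lost that call without HT_DL replicate 3 (log2 fold changes of 0.97 and 0.95), and the synthase also without HT_HL replicate 1 (1.25, adjusted p = 0.0538).

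Between the tissues (endosperm minus embryo), the log2 difference was -6.32 for stearoyl-ACP desaturase Solyc06g059720.3.1, -0.61 for hexokinase Solyc06g066440.3.1, 2.78 for glycerol-3-phosphate acyltransferase Solyc07g056320.4.1 and -0.88 for 2-isopropylmalate synthase Solyc08g014130.3.1. Each of these 4 lost the call in 8 or more of 13 fits with 1 HT library left out.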

How the results depend on the processing

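No alternative turned a DEG from lower to higher or back. The counts of higher and lower DEGs (514 and 624) were 534 and 604 with RLE scaling, 639 and 535 on library totals, where the median log2 fold change of all genes moved to 0.08 and the lower share of the calls fell from 54.8% to 45.6%, and 678 and 642 with DESeq2. They were 2059 and 2672 without a fold threshold, 94 and 284 in a test against a fold of 1.5, and 337 and 496 in a fit of the 6 HT libraries alone. With 1 replicate left out they ranged from 243 to 625 and from 411 to 755, both lowest without HT_HL replicate 1. Same-numbered HT_DL and HT_HL libraries had correlations of deviations of 0.085, -0.048 and -0.006, and differently numbered ones between -0.069 and 0.076. With 3 libraries per condition, these values cannot decide whether the replicate numbers pair the libraries. The replicate block gave 421 and 599 DEGs in the 12 libraries and 295 and 510 in the 6.

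The 987 interaction genes became 1888 with DESeq2, 3297 with limma voom, 299 with the replicate block, 27 without the 4 endosperm libraries that stood apart, and 103 to 1488 with 1 replicate left out. The 145 genes that differed between tissues became 537 on library totals, 60 with no filter, 691 with DESeq2, 822 with limma voom, 278 with the replicate block and 12 to 288 with 1 replicate left out. The fit without the 4 endosperm libraries left only 1 ST_HL library, so its count cannot be compared with the 987. It does not show what leaving out those libraries does to the interaction. What caused the changes in these counts was not tested.

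Of 1649 values of the 97 named genes, 1373 kept direction and call, 251 lost the call, 23 gained it and 2 reversed. Both reversals were of Solyc01g005120.3.1, not a DEG (2.07), at -0.56 with limma voom and between -1.18 (without HT_DL replicate 3) and 2.62 with 1 replicate left out. Of 76 named DEGs, 17 were called in every alternative. At these depths a gene under 1 CPM rests on few counts in a library, and its values are the least certain.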

Other observations

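The DEGs were spread over all chromosomes as named in the IDs. The share of lower DEGs lay between 2.26% (chromosome 11) and 4.08% (chromosome 7), and that of higher DEGs between 1.71% (chromosome 11) and 3.42% (chromosome 9). On the unplaced scaffolds, 10 of 168 tested genes were higher and 1 was lower, against 2.68% and 3.25% of all genes. Of 19172 pairs of tested genes with neighbouring IDs, 56 had both members lower, 27 both higher and 17 had opposite calls.

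Among gene groups with no DEG, the beta subunit of tryptophan synthase, Solyc07g064280.3.1, which makes the last step of tryptophan synthesis, was at 65.2, 65.5 and 61.1 CPM in HT_DL and 112, 112 and 97.3 CPM in HT_HL (log2 fold change -0.74 ± 0.09 SE, adjusted p = 0.000518). The glutathione-independent glyoxalase Solyc02g081400.3.1, which clears the toxic sugar product methylglyoxal, was at 179.6, 181 and 168 CPM in HT_DL and 262, 254 and 319 CPM in HT_HL (log2 fold change -0.66 ± 0.09 SE, adjusted p = 0.000736). In both, all HT_HL libraries lay above all HT_DL libraries. The transaldolase Solyc11g033288.1.1, of the pentose phosphate pathway, was at 97.5, 108 and 110.2 CPM in HT_DL and 70.6, 80.1 and 80.7 CPM in HT_HL (log2 fold change 0.45 ± 0.08 SE, adjusted p = 0.00373), and the glutamate-glyoxylate transaminase Solyc01g007940.4.1, of photorespiration, at 235, 257 and 275 CPM in HT_DL and 174, 189 and 202 CPM in HT_HL (log2 fold change 0.44 ± 0.08 SE, adjusted p = 0.00332).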
